A study of Mus musculus with 96 samples.

Results

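The cytochrome P450 genes described here are the mouse genes whose symbol consists of Cyp followed by a family number, a subfamily letter and a member number, such as Cyp3a11. The expression tables held 94 such genes among 55536 gene identifiers. Of these, 34 reached a mean of 1 TPM (a length-corrected share of the library's transcripts) in at least 1 genotype and are reported below, and 60 did not. The tables came from RNA-seq of mouse small intestinal organoids, which are epithelial cultures grown from intestinal stem cells. All organoids were of the C57BL/6 strain and were exposed to 0.1 µM dexamethasone, a synthetic glucocorticoid used to align cellular clocks, for 1 h. RNA was taken every 2 h from 24 h to 46 h afterwards, at 12 time points.

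4 genotypes were compared. Control organoids were wild type for both genes (APC+/+;BMAL1+/+). Bmal1-null organoids lacked BMAL1, an obligate activator of the circadian clock encoded by Arntl (APC+/+;BMAL1-/-). Apc-min organoids were labelled APCmin/-;BMAL1+/+, and the min allele truncates APC, a negative regulator of Wnt signalling. Apc-min Bmal1-null organoids carried both lesions (APCmin/-;BMAL1-/-). The tables held 22 libraries of each genotype (88 of 96 labelled), 1 or 2 at each time point. Each genotype was represented by 2 organoid lines, but the labels do not tie libraries to lines, so every p-value below covers the spread between libraries only. Organoids with wild-type Apc were kept in medium labelled ENR and those with Apc-min in medium labelled EN. Their libraries also carried separate number ranges, 49 to 96 for wild-type Apc and 2 to 48 for Apc-min. An Apc comparison is therefore also a comparison of media and of library ranges, and these cannot be told apart.

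Uniquely mapped reads ranged from 28.8 M to 48.1 M per library. The share of reads left unmapped as too short was 2.93% to 15.82% in control, 2.9% to 13.17% in Bmal1-null, 0.82% to 1.96% in Apc-min and 0.75% to 3.86% in Apc-min Bmal1-null libraries. Its part in the results was not tested. Arntl, the targeted clock gene, checked the labels by its whole-gene value, since the deleted part was not analysed here. It ran at 11.26 to 20.66 TPM in control and 6.31 to 10.92 TPM in Bmal1-null libraries. A pair of libraries taken at 28 h went against their Bmal1 labels. The library labelled Apc-min (number 9) had 4.09 TPM of Arntl, against 7.2 to 17.29 TPM in the other Apc-min libraries. The library labelled Apc-min Bmal1-null (number 10) had 14.7 TPM, against 2.0 to 6.22 TPM in the others of that label. Neither was relabelled or dropped, and the counts and main differences that rest on them are also given without this doubted pair.

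Cytochrome P450 enzymes are heme proteins that insert an oxygen atom from molecular oxygen into lipophilic substrates, with electrons passed on by P450 reductase (Por) or, in mitochondria, by ferredoxin. Members of families 1 to 3 are known mainly for oxidising drugs and other foreign compounds, and members of family 4 for hydroxylating fatty acids and eicosanoids. Other families act on sterols, bile acids, vitamin D and retinoic acid. In the small intestine the enzymes are known from the absorptive enterocytes, where several are induced through the ligand-activated receptors PXR (Nr1i2), CAR (Nr1i3) and AhR (Ahr).

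Promoter sequences are shown for Cyp3a11, the gene with the largest Bmal1 difference in organoids with wild-type Apc, and for Cyp2f2 and Cyp1b1, which had the largest rises in Apc-min, so that motifs of known regulators can be seen in place. Each is the reference sequence from RefSeq (GRCm38.p6), written 5′ to 3′ in the direction of transcription, from 250 bases before to 50 bases after the annotated start. Capitals in Cyp3a11 (chr5:145879805-145880104, minus strand) and Cyp2f2 (chr7:27119705-27120004, plus strand) mark AGGTCA, the hexamer recognised by many nuclear receptors. Capitals in Cyp1b1 (chr17:79715012-79715311, minus strand) mark the core of the AhR element, GCGTG, which is read here on the opposite strand.
Cyp3a11: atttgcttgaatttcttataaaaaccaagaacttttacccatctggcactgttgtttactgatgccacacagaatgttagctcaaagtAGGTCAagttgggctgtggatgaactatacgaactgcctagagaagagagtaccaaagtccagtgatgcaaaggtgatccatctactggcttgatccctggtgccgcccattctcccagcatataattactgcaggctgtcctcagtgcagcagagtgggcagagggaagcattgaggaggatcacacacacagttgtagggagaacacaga
Cyp2f2: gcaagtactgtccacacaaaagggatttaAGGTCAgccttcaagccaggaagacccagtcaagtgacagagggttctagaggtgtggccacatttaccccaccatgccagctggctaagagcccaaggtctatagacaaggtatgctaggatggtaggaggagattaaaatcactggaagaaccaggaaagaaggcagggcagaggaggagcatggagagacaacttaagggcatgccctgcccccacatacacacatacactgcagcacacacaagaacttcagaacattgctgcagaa
Cyp1b1: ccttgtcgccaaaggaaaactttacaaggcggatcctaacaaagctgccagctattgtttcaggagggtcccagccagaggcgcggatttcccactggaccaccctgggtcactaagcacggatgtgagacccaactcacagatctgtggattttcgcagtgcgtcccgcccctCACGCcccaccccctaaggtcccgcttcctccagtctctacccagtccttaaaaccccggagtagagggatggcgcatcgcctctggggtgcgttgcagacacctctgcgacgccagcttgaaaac

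Of the 34 reported genes, 29 had a RefSeq promoter. AGGTCA occurred on either strand in 17.2% of them (Cyp2a5, Cyp2c29, Cyp2f2, Cyp3a11 and Cyp3a25), against 18.1% of all 27025 genes with a promoter of the same length. GCGTG occurred in 34.5% of the P450 genes and 35.2% of all genes. The E-box CACGTG, bound by BMAL1 with CLOCK, occurred in 6.9% (Cyp2j6 and Cyp4v3), against 8.09% of all genes. TTATGTAA, a site of the clock-controlled PAR bZIP factors, occurred in none of the 29 and in 1.11% of all genes. These are matches of letters within 300 bases and are no evidence of binding.

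Family 2 made up most of the set, with 19 of its 49 matched genes reported. Family 4 followed with 8 of 17, family 3 with 3 of 7 and family 1 with 1 of 3. Families 20, 27 and 39 gave 1 reported gene each, Cyp20a1, Cyp27a1 and Cyp39a1. No member of the families of steroid hormone synthesis (11, 17, 19 and 21), bile acid and cholesterol hydroxylation (7, 8 and 46), vitamin D inactivation (24) or retinoic acid breakdown (26) reached 1 TPM. The closest below the limit was Cyp26b1, which clears retinoic acid, at a mean of 0.929 TPM in Apc-min organoids, followed by Cyp2j5 at 0.887 TPM in Bmal1-null organoids. Just inside it was Cyp2a5, whose highest genotype mean was 1.05 TPM. 4 genes (Cyp2a22, Cyp2c50, Cyp2c54 and Cyp11b1) were listed at 0 in all 88 libraries.

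Many of the reported genes are neighbours. 5 Cyp2c genes lie within 734 kb of chromosome 19 (39007019 to 39741054, GRCm38), 6 Cyp4f genes within 495 kb of chromosome 17 (32452723 to 32947402) and 5 Cyp2d genes within 424 kb of chromosome 15 (82370527 to 82794294). Near-identical copies can share reads, so the exons were scanned for stretches of one read length (101 bases) that recur in another gene. Such stretches made up 19.6% of Cyp2c68 (shared with Cyp2c40, Cyp2c67 and Cyp2c69), 11.8% of Cyp2a5 (with Cyp2a4) and 11.5% of Cyp2d10 (with Cyp2d9 and Cyp2d11). Cyp2c65 and Cyp2c66 shared 7.71% and 7.25% of theirs with each other. The split of reads in these genes is uncertain. In Cyp3a11 the share was 0.101%, and Cyp2f2, Cyp1b1, Cyp2w1 and Cyp4f14 had none. Cyp3a13 overlaps Gm15502 on the same strand, so part of its value is uncertain too.

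In organoids with wild-type Apc, P450 transcripts were abundant and led by few genes. The 34 genes summed to 2510.4 ± 202 TPM (SD, n = 22) in control and 2584 ± 267 TPM (n = 22) in Bmal1-null libraries. Cyp4f14, a leukotriene and fatty acid hydroxylase, made up 33.1% of the control sum, Cyp2d26 made up 11.7% and Cyp3a13, the main intestinal Cyp3a gene of the mouse, 8.24%. The sums in the Apc-min genotypes were lower, at 299 ± 138 TPM (n = 22) and, with Bmal1 also lost, 167 ± 60.99 TPM (n = 22). Leaving out the doubted pair gave 307 ± 136 TPM (n = 21) and 155 ± 21.4 TPM (n = 21). The leading genes were others: Cyp2f2 with 30.0% in Apc-min, and Cyp20a1 with 17.5% in Apc-min Bmal1-null organoids. No library with wild-type Apc had a sum below 2026 TPM, and none with Apc-min exceeded 518 TPM. In bulk RNA, fewer cells of a type and less RNA per cell cannot be told apart.

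**Figure D1:**
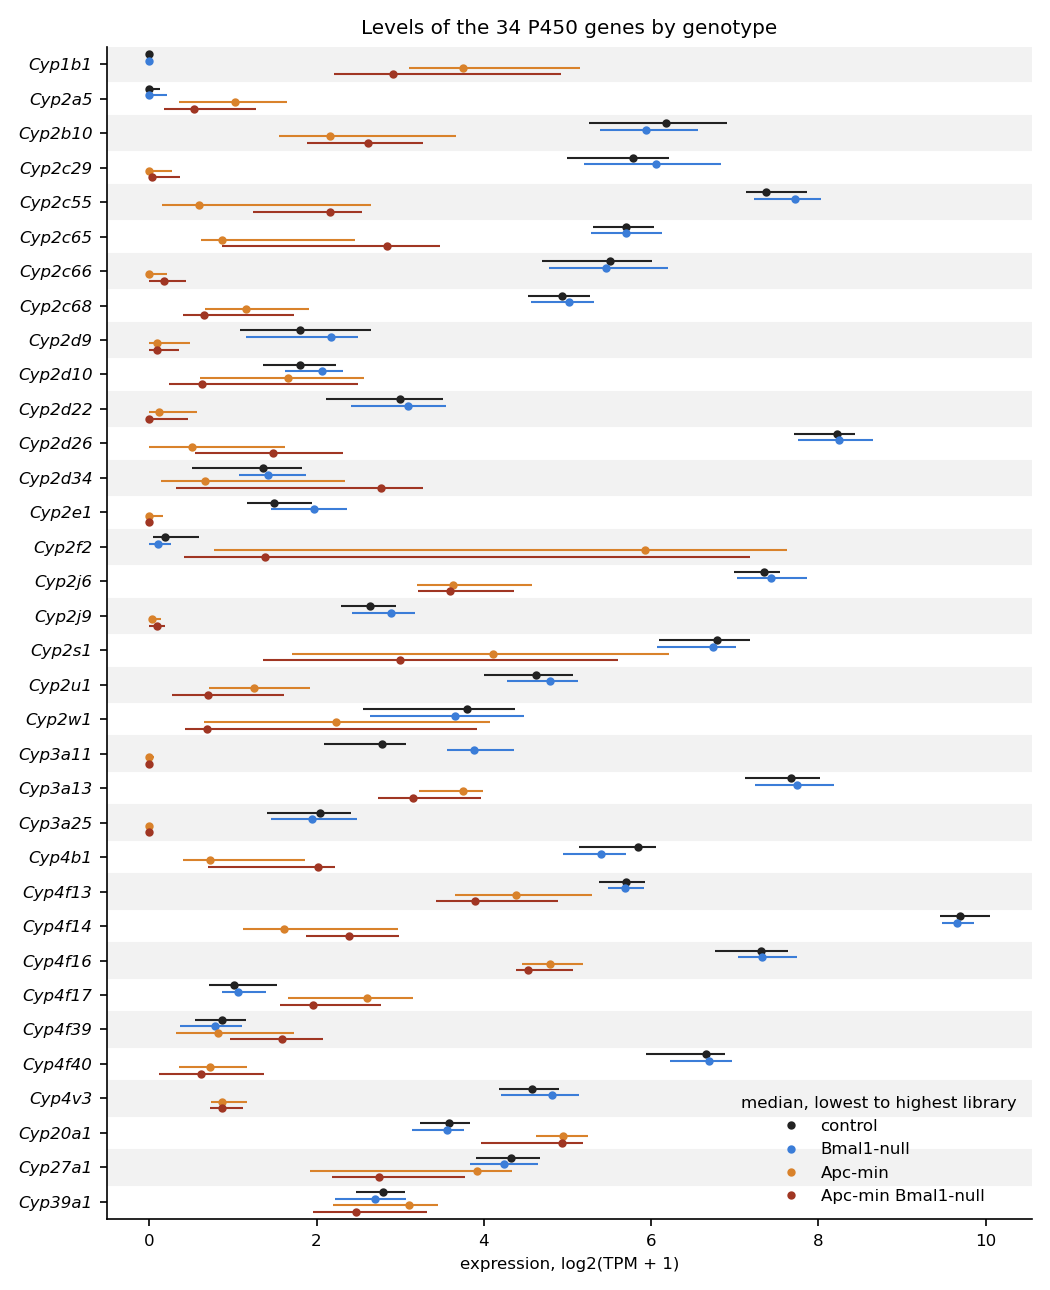
Median expression of the 34 P450 genes in the 4 genotypes, with a line from the lowest to the highest library, ordered by family. The scale is logarithmic, in TPM with a pseudocount added. Cyp4f14, Cyp2d26 and the Cyp2c genes are higher in the genotypes with wild-type Apc, while Cyp2f2 and Cyp1b1 are higher in the Apc-min genotypes.

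Loss of Bmal1 in organoids with wild-type Apc went with a change in 6 of the 34 genes. Cyp3a11, Cyp2e1, Cyp2c55, Cyp2d10 and Cyp2j9 rose and Cyp4b1 fell, while 28 did not pass the test. Over all 13846 genes tested, 2.07% rose and 1.48% fell at an adjusted p under 0.05 (limma on log2(TPM + 1) with the time point as a factor, Benjamini-Hochberg adjustment over all genes). The median difference was 0.05 on the log2 scale over the P450 genes and 0.00 over all genes. All values below that carry a plus-minus sign and the word log2 are differences of log2(TPM + 1) with their standard error, on 22 against 22 libraries unless another number is given.

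Cyp3a11, a PXR target that oxidises drugs and bile acids and is known to be induced by dexamethasone, showed the largest difference. It lies on chromosome 5 (145854426 to 145879964, minus strand). Its level ran from 3.26 through a median of 5.87 to 7.43 TPM in control libraries. In Bmal1-null libraries it ran from 10.8 through 13.8 to 19.5 TPM. Every Bmal1-null library was above every control library, and the mean was higher at 12 of 12 time points. Such separation upward was seen in 0.0939% of all genes, and separation downward in 0.0433%, which included no P450 gene. The ratio of means was 2.57 and the difference 1.23 ± 0.06 log2 (limma, adjusted p = 7.02e-17). Control time-point means went from 3.52 TPM at 26 h to 7.08 TPM at 40 h, and Bmal1-null means from 11.7 TPM at 26 h to 19.5 TPM at 42 h (1 library). Its neighbour Cyp3a25, at means of 3.26 and 2.99 TPM, differed by -0.09 ± 0.06 log2, and Cyp3a13, at 207 and 212 TPM, by 0.05 ± 0.05 log2. Neither passed.

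Cyp4b1, which hydroxylates fatty acids and activates certain toxins, was the 1 gene that fell. Control libraries ran from 34.3 through 56.4 to 65.8 TPM and Bmal1-null libraries from 29.9 through 41.4 to 50.9 TPM. The ranges overlapped, although the mean was lower at 12 of 12 time points. The fall was 0.41 on the log2 scale, or -0.41 ± 0.04 log2 (limma, adjusted p = 2.8e-09).

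The other 4 rises were smaller. Cyp2c55, an arachidonic acid hydroxylase of the gut, ran at 140 to 232 TPM in control and 150 to 260 TPM in Bmal1-null libraries and was higher at 12 of 12 time points (0.29 ± 0.05 log2, limma adjusted p = 0.000593). Cyp2e1, known for ethanol oxidation, was also higher at 12 of 12 time points, with means of 1.87 and 2.99 TPM (0.47 ± 0.07 log2, adjusted p = 2.0e-05). Cyp2j9 and Cyp2d10 rose by 0.23 ± 0.05 and 0.26 ± 0.06 log2, each at 11 of 12 time points. Library ranges overlapped in all 4. Cyp2c29 had a larger difference than 3 of them, 0.41 ± 0.13 log2, but a wider spread, and did not pass (adjusted p = 0.0853).

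These p-values take each library as a unit. Where the libraries of a genotype were first averaged into their lower- and higher-numbered set, leaving 2 against 2, no P450 gene passed in this comparison, and the adjusted p of Cyp3a11 was 0.17 (limma).

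**Figure D2:**
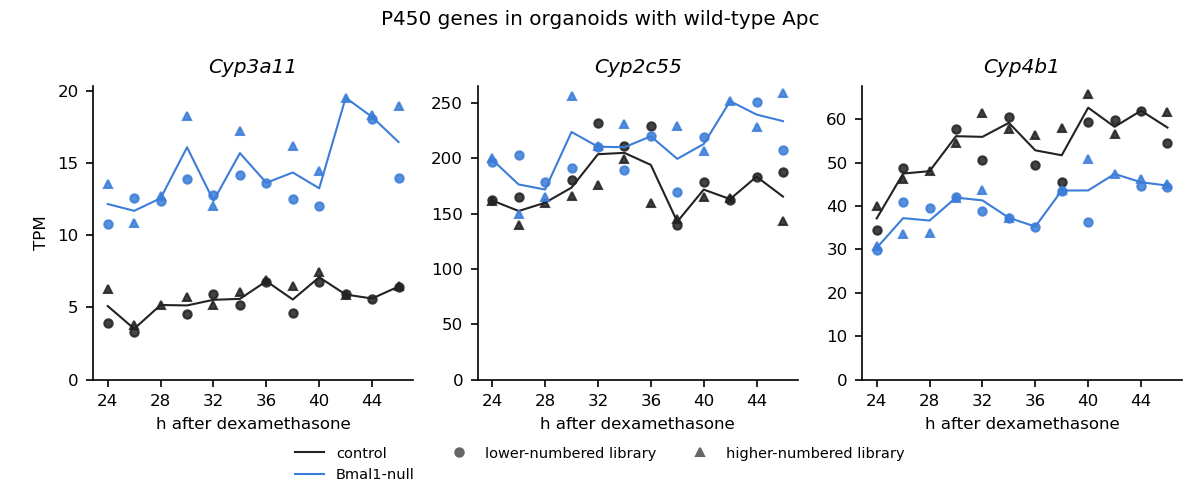
Cyp3a11, Cyp2c55 and Cyp4b1 in organoids with wild-type Apc, in TPM against hours after dexamethasone. Points are libraries, with their shape giving the lower- or higher-numbered library of each time point, and lines join time-point means; Bmal1-null means lie above control means at all 12 time points for Cyp3a11 and Cyp2c55 and below them for Cyp4b1.

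The Bmal1 comparison in Apc-min organoids gave more calls and larger differences. Of the 34 genes, 9 rose and 13 fell in Apc-min Bmal1-null against Apc-min organoids, and 12 did not pass. Over all genes 24.2% rose and 34.8% fell, so the count is read against a broad difference between these groups. With the doubted pair left out 9 rose and 14 fell, against 26.2% and 38.5% of all genes. In the fit with all libraries, the 5 rises of over 1 log2 unit were Cyp2d34, Cyp2c65, Cyp4b1, Cyp2d26 and Cyp2c55. The 4 falls of that size were Cyp2f2, Cyp2w1, Cyp1b1 and Cyp2d10, and Cyp27a1 came close (-0.98 log2, limma adjusted p = 5.02e-08). Without the doubted pair, 5 genes rose and 5 fell by that much.

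With all libraries, no gene of the 13846 had ranges that stood apart between these genotypes (0% upward, 0% downward). Once the doubted pair was left out, 8 P450 genes did. Cyp2d34, Cyp2c65 and Cyp4b1 stood apart upward, against 1.85% of all genes. Cyp2f2, Cyp2w1, Cyp2d10, Cyp27a1 and Cyp3a13 stood apart downward, against 4.88%.

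Cyp2f2, which bioactivates naphthalene and is best known from the airway, held the largest difference. It lies on chromosome 7 (27119909 to 27133660, plus strand). Without the doubted pair it ran from 18.4 through 62.98 to 197 TPM in Apc-min libraries (n = 21). In Apc-min Bmal1-null libraries it ran from 0.33 through 1.57 to 9.06 TPM (n = 21). The means differed 31.4-fold and the difference was -4.43 ± 0.33 log2 (limma, adjusted p = 2.97e-13). The doubted Apc-min library had 0.71 TPM and the doubted Apc-min Bmal1-null library 143.8 TPM. Each thus lay within the range of the other genotype. With both kept the ratio of means was 9.53 and the difference -3.92 ± 0.51 log2 (adjusted p = 1.04e-07). Libraries with wild-type Apc had at most 0.51 TPM.

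Cyp2f2 also differed between the lower- and higher-numbered libraries of a genotype. The lower-numbered Apc-min libraries ran from 94.7 through 170 to 197 TPM (n = 9) and the higher-numbered ones from 18.4 through 44.1 to 65.8 TPM (n = 12), doubted pair left out. In Apc-min Bmal1-null organoids the order was the opposite, at 0.33 to 1.57 TPM in lower- and 1.67 to 9.06 TPM in higher-numbered libraries. All libraries of each Apc-min set were above all those of either Apc-min Bmal1-null set.

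Cyp1b1, which hydroxylates estrogens and polycyclic hydrocarbons and is induced through AhR, was the 1 reported gene of family 1 (chromosome 17, 79701537 to 79715061, minus strand). It ran from 7.59 through 12.5 to 34.7 TPM in Apc-min and from 3.62 through 6.52 to 29.3 TPM in Apc-min Bmal1-null libraries. The highest value of the latter was the doubted library, and the others reached 11.5 TPM. The ranges overlapped with and without the pair. Cyp1b1 fell by 1.07 on the log2 scale (SE 0.21, limma adjusted p = 5.46e-05), and without the pair by 1.21 (SE 0.18, n = 21 against 21). In Apc-min its lower-numbered libraries ran at 20.3 to 34.7 TPM and its higher-numbered ones at 8.77 to 15.1 TPM.

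Cyp2w1, known from fetal gut and colorectal tumours, fell as well, to below the control range of 4.89 through 12.9 to 19.7 TPM in all but the doubted library. It ran from 0.58 through 3.7 to 15.8 TPM in Apc-min and from 0.34 through 0.62 to 14.1 TPM in Apc-min Bmal1-null libraries. Both extremes that crossed came from the doubted pair, without which the ranges were 1.73 to 15.8 TPM and 0.34 to 1.28 TPM. The difference was -1.58 ± 0.28 log2 (limma, adjusted p = 2.17e-05), and -1.82 ± 0.22 log2 without the pair. Cyp2d10 ran from 0.52 through 2.16 to 4.91 TPM in Apc-min and from 0.18 through 0.545 to 4.65 TPM in Apc-min Bmal1-null libraries, against 1.56 to 3.7 TPM in control libraries (-1.07 ± 0.15 log2, adjusted p = 6.17e-07). It too stood apart once the doubted pair was left out, with -1.21 ± 0.10 log2.

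The 5 genes that rose by over 1 log2 unit in Apc-min Bmal1-null organoids were at 10.1 TPM or less in every library of both groups. Cyp2d34 ran from 0.1 through 0.59 to 4.07 TPM in Apc-min and from 0.25 through 5.8 to 8.65 TPM in Apc-min Bmal1-null libraries. Without the doubted pair these ranges were 0.1 to 1.3 TPM and 3.02 to 8.65 TPM, so that no library overlapped. The difference was 1.96 ± 0.18 log2 (limma, adjusted p = 2.22e-10), and 2.16 ± 0.10 log2 without the pair. Its median exceeded that of control libraries, which ran from 0.42 through 1.57 to 2.54 TPM, and that of Bmal1-null libraries, 1.685 TPM.

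Cyp2c65, a gut arachidonic acid hydroxylase next to Cyp2c66, had a median of 0.825 TPM over Apc-min libraries and one of 6.17 TPM over Apc-min Bmal1-null libraries. The difference was 1.87 ± 0.16 log2 (limma, adjusted p = 6.37e-11), and the ranges without the pair were 0.54 to 1.18 TPM and 4.34 to 10.1 TPM. Both groups lay below every library with wild-type Apc, the lowest of which had 38.04 TPM; control libraries ran through a median of 51.1 to 64.4 TPM. Cyp4b1, which fell with loss of Bmal1 in wild-type Apc organoids, rose here by 1.17 ± 0.11 log2 (adjusted p = 1.45e-10), from 0.32 through 0.66 to 2.63 TPM in Apc-min to 0.63 through 3.05 to 3.68 TPM. Cyp2d26 rose by 1.08 ± 0.11 log2 (adjusted p = 2.82e-09), from a median of 0.425 to 1.80 TPM. Leaving out the pair gave 2.04 ± 0.09 log2 for Cyp2c65, 1.29 ± 0.06 log2 for Cyp4b1 and 1.19 ± 0.08 log2 for Cyp2d26. Cyp2c55 rose by 1.01 ± 0.21 log2 (1.06 ± 0.22 log2 without the pair), but its Apc-min sets stood apart, at 1.64 to 5.29 TPM in lower- and 0.11 to 0.53 TPM in higher-numbered libraries.

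That kind of split was common in Apc-min. Among members at a mean of 1 TPM or more in a set, the sets stood apart for 12 of 21 in Apc-min, 1 of 19 in Apc-min Bmal1-null and none of 30 in control or Bmal1-null organoids, doubted pair left out. Over all genes at that level the sets stood apart for 22.5%, 1.13%, 0.513% and 0.143%, in the same order with control before Bmal1-null. Cyp2s1, a retinoid-metabolising enzyme, had medians of 62.8 and 5.14 TPM in the 2 Apc-min sets, and its Bmal1 difference did not pass with all libraries (-0.67 ± 0.38 log2, limma adjusted p = 0.13) but did without the pair (-0.88 ± 0.35 log2, adjusted p = 0.0276). With set means as units, 2 against 2, no P450 gene passed in this comparison either, with adjusted p of 0.0738 for Cyp2f2 and 0.0512 for Cyp4b1 (limma). These set means included the doubted pair.

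**Figure D3:**
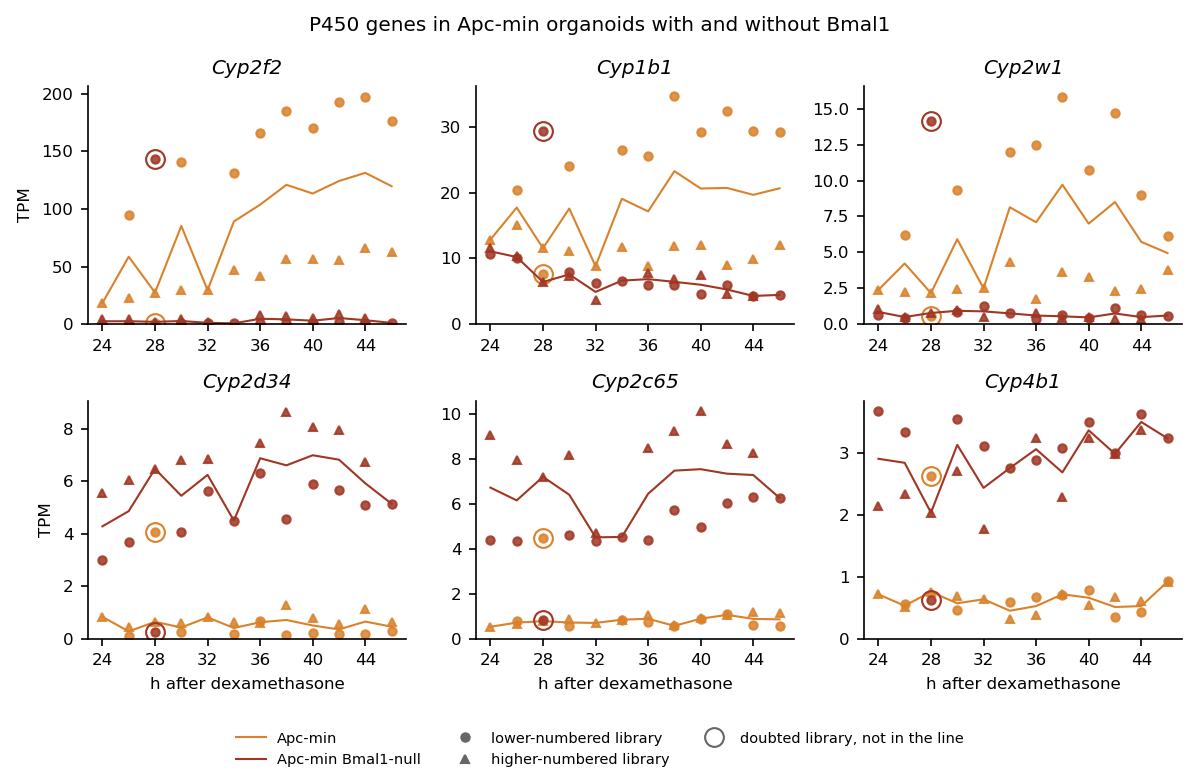
6 P450 genes in the Apc-min genotypes, in TPM against hours after dexamethasone. Points are libraries, lines join time-point means without the doubted pair, and circles mark that pair at 28 h; outside the circles every library of one genotype is above every library of the other for Cyp2f2, Cyp2w1, Cyp2d34, Cyp2c65 and Cyp4b1, but not for Cyp1b1.

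The effect of Bmal1 loss was compared directly between the Apc backgrounds by an interaction term over all 88 libraries. It passed for 26 of the 34 genes, 7 upward and 19 downward, against 47.7% of all genes in either direction. Leaving out the pair, it passed for 27, against 53.3%. Cyp4b1 had the smallest adjusted p among the upward ones, with 1.60 log2 (limma, adjusted p = 7.46e-20), its Bmal1 differences being -0.41 and 1.17 log2 in the 2 backgrounds. The Cyp3a11 term was -1.21 log2 (adjusted p = 1.14e-23), and here the gene was listed at 0 in 20 of 22 Apc-min and 16 of 22 Apc-min Bmal1-null libraries, so the term rests on the wild-type Apc background.

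The Apc comparisons moved most P450 genes. In Apc-min against control organoids 26 of the 34 fell, 6 rose and 2 did not pass, whereas over all genes 31% fell and 50.4% rose. The median difference was -2.64 log2 over the P450 genes and 0.17 log2 over all genes. In Apc-min Bmal1-null against Bmal1-null organoids 26 fell, 7 rose and 1 did not pass, against 38.1% and 45.6% of all genes, with medians of -2.88 and 0.08 log2. Without the doubted pair the first comparison gave the same counts, against 30.8% fallen and 50.5% risen, and the second gave 27 and 7, against 39.4% and 45.4%. The 2 comparisons use different libraries, but the medium and the library range differ in the same way in both. Genes entered by reaching 1 TPM in any genotype, and all genes tested met the same limit. A gene that met it only with wild-type Apc, such as Cyp3a25, was bound to be lower in Apc-min. One that met it only in Apc-min, such as Cyp1b1, was bound to be higher there. After median-of-ratios scaling, which moved the median of all genes in the first comparison by -0.15 log2, 26 fell and 4 rose of those tested. The share of all genes called after this scaling was not computed.

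Library ranges stood apart for 27 of the 34 in the first comparison, 22 downward (12.8% of all genes) and 5 upward (15.1%). In the second they did for 28, 24 downward (14.9%) and 4 upward (15%). Leaving out the doubted pair kept the first counts, against 13.3% and 17.2% of all genes, and gave 31 in the second, 26 downward (18.7%) and 5 upward (17.1%).

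Cyp4f14 fell furthest on the log2(TPM + 1) scale, where the added 1 limits the change of genes that end near 0. By the ratio of means it fell 256-fold in Apc-min, and Cyp2d26 fell 605-fold. Genes that ended nearer to 0 fell further by that measure, among them Cyp2c29 (means of 52.2 TPM in control and 0.036 TPM in Apc-min) and Cyp2c66 (44.0 and 0.036 TPM). Cyp4f14 ran from 702 through 827 to 1061 TPM in control and from 713 through 804 to 930 TPM in Bmal1-null libraries. In Apc-min it ran from 1.18 through 2.05 to 6.88 TPM and in Apc-min Bmal1-null from 2.66 through 4.22 to 6.91 TPM. The differences were -7.79 ± 0.16 log2 (limma, adjusted p = 8.8e-32) and -7.29 ± 0.06 log2 (adjusted p = 3.97e-44). Its neighbour Cyp4f40 went from a control median of 99.7 TPM to an Apc-min median of 0.655 TPM (-5.83 ± 0.09 log2), and from 102.5 to 0.54 TPM without Bmal1 (-5.96 ± 0.08 log2).

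Not all of the Cyp4f cluster moved this way. Cyp4f16 and Cyp4f13 fell less, by 2.45 and 1.24 on the log2 scale in Apc-min. Cyp4f17 rose by 1.55 ± 0.09 log2 (limma, adjusted p = 6.37e-18), from 0.64 through 1.01 to 1.89 TPM in control to 2.15 through 5.08 to 7.88 TPM in Apc-min libraries. Cyp4f39, which acts on very long fatty acids of the skin barrier, did not pass in Apc-min (0.05 ± 0.11 log2) and rose in Apc-min Bmal1-null (0.80 ± 0.07 log2). Its Apc-min value averaged sets that stood apart, doubted pair left out. Lower-numbered libraries ran at 1.14 to 2.33 TPM and higher-numbered ones at 0.25 to 0.83 TPM, against 0.46 to 1.23 TPM in control.

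In family 2, 16 of 19 fell in each Apc comparison. Cyp2d26 went from control values of 208 through 298 to 346 TPM to Apc-min values of 0 through 0.425 to 2.09 TPM (-7.72 ± 0.08 log2, limma adjusted p = 4.31e-40). In the Bmal1-null background the fall was 6.72 on the log2 scale. Bmal1-null libraries ran from 215 through 304 to 401 TPM and Apc-min Bmal1-null libraries from 0.46 through 1.80 to 4.0 TPM.

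The Cyp2c genes, several of which oxidise arachidonic acid, were among the abundant members with wild-type Apc and fell in both comparisons. Cyp2c55 had medians of 165 TPM in control, 209 TPM in Bmal1-null, 0.505 TPM in Apc-min libraries and 3.48 TPM where both lesions were present, with differences of -6.32 ± 0.21 and -5.60 ± 0.08 log2 in the first and second comparison. Cyp2c29 ran from 30.9 through 53.9 to 73.2 TPM in control and from 35.8 through 65.7 to 113.5 TPM in Bmal1-null libraries, and differed by -5.65 ± 0.07 and -6.03 ± 0.11 log2. It was listed at 0 in 13 of 22 Apc-min and 8 of 22 Apc-min Bmal1-null libraries and reached 0.21 and 0.29 TPM. Cyp2c66 ran from 24.9 through 44.5 to 63.4 TPM in control and from 26.5 through 43.2 to 72.6 TPM in Bmal1-null libraries, with at most 0.16 TPM in Apc-min (0 in 12 of 22) and 0.36 TPM in Apc-min Bmal1-null libraries. Its differences were -5.39 ± 0.09 and -5.32 ± 0.09 log2. Cyp2c68 ran from 22.1 through 29.6 to 37.6 TPM in control, 22.7 through 31.4 to 38.9 TPM in Bmal1-null, 0.59 through 1.23 to 2.77 TPM in Apc-min and 0.32 through 0.575 to 2.33 TPM in Apc-min Bmal1-null libraries. It differed by -3.68 ± 0.11 and -4.28 ± 0.07 log2. The 5 Cyp2c genes fell together in both comparisons. Of the Cyp2d cluster, Cyp2d10 departed from its neighbours in the first comparison and Cyp2d34 in the second. Cyp2d10 differed by 0.07 ± 0.11 log2 in Apc-min and did not pass. Here too the Apc-min sets stood apart, at 2.98 to 4.91 TPM in lower- and 1.61 to 2.61 TPM in higher-numbered libraries, doubted pair left out. In Apc-min Bmal1-null against Bmal1-null Cyp2d10 fell (-1.29 log2, limma adjusted p = 1.76e-13). Cyp2d34 fell in Apc-min (-0.69 ± 0.13 log2) and rose in Apc-min Bmal1-null (1.15 ± 0.13 log2).

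All 3 Cyp3a genes fell. Cyp3a13 ran from 139 through 203 to 259 TPM in control and from 8.37 through 12.5 to 14.9 TPM in Apc-min libraries (-3.91 ± 0.06 log2, limma adjusted p = 7.79e-36). In Apc-min Bmal1-null libraries it ran from 5.68 through 7.87 to 14.7 TPM (-4.49 ± 0.09 log2 against Bmal1-null). Bmal1-null libraries had a mean of 212 TPM. Cyp3a25 was listed at 0 in every Apc-min and Apc-min Bmal1-null library, and Cyp3a11 in most.

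Cyp2f2, Cyp1b1 and Cyp2a5 rose from near 0, and the other rises began from higher levels. Cyp2f2 had control values of 0.03 through 0.135 to 0.51 TPM and rose by 5.75 ± 0.31 log2 in Apc-min (limma, adjusted p = 1.29e-18) and by 1.75 ± 0.33 log2 in Apc-min Bmal1-null against Bmal1-null (adjusted p = 8.75e-06). With the pair left out these were 5.90 ± 0.24 and 1.49 ± 0.22 log2. Cyp1b1 was listed at 0 in 17 of 22 control and 20 of 22 Bmal1-null libraries, with at most 0.03 TPM in the rest, and in every Apc-min library it had at least 7.59 TPM. On the log2(TPM + 1) scale it differed by 4.08 ± 0.16 and 3.0 ± 0.12. Cyp20a1, an orphan P450 of unknown substrate, rose by 1.41 ± 0.05 and 1.39 ± 0.07 log2, from medians of 11.03 and 10.8 TPM to 29.9 and 29.7 TPM. Cyp2a5, a coumarin hydroxylase, and Cyp4f17 rose in both comparisons too. Cyp39a1, an oxysterol hydroxylase, rose in Apc-min by 0.22 ± 0.07 log2, from 4.57 through 5.92 to 7.34 TPM in control to 3.59 through 7.62 to 9.99 TPM, and Cyp27a1, the mitochondrial sterol hydroxylase, differed by -0.53 ± 0.09 and -1.5 ± 0.08 log2, a fall in both. With library set means as units, doubted pair included, 29 and 33 P450 genes passed in the 2 Apc comparisons. In the first, the calls of Cyp39a1 (adjusted p = 0.356), Cyp27a1 (adjusted p = 0.0509) and Cyp2w1 (adjusted p = 0.0993) were lost (limma). The share of all genes that passed with set means was not computed, so the counts of 29 and 33 show nothing particular to P450 genes.

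**Figure D4:**
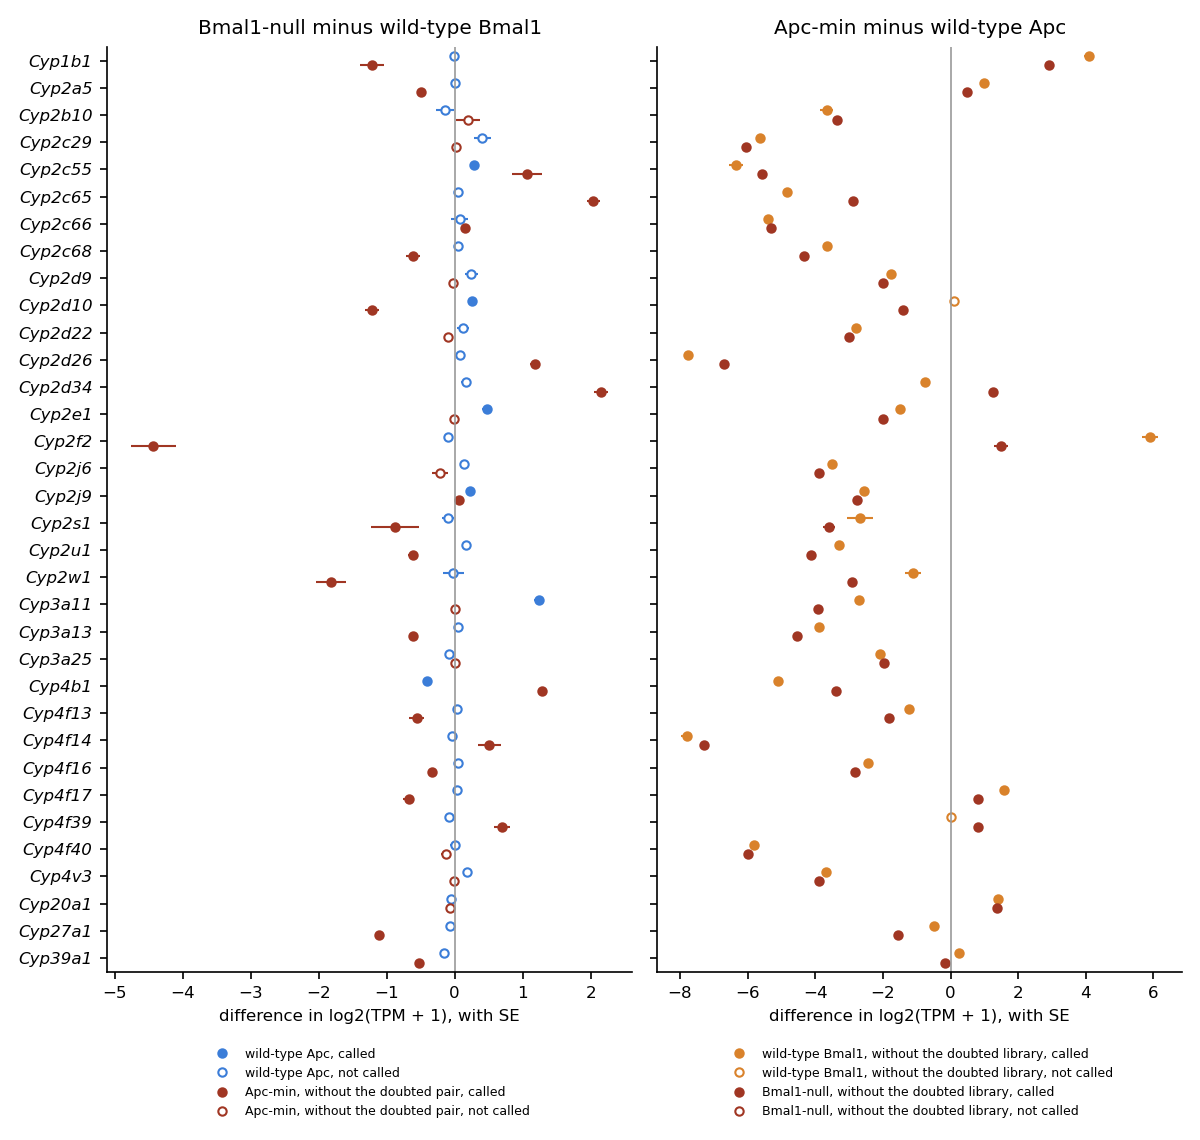
Differences of log2(TPM + 1) with standard errors for the 34 P450 genes in the Bmal1 and the Apc comparisons. Comparisons with an Apc-min genotype are drawn without the doubted pair. Most Apc differences lie below 0, while those of Bmal1 loss with wild-type Apc lie between -0.41 and 0.47 except for Cyp3a11 at 1.23.

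Cyp4f14, Cyp2d26 and Cyp4f40 had time-point means in Apc-min organoids that did not overlap with those in control organoids. Time-point means of Cyp4f14 lay between 739 TPM (24 h) and 961 TPM (30 h) in control and between 1.18 TPM (32 h) and 4.28 TPM (44 h) in Apc-min organoids. Those of Cyp2d26 lay between 209 TPM (24 h) and 341 TPM (34 h) in control organoids. Those of Cyp4f40 lay between 77.8 TPM (38 h) and 117 TPM (28 h), again in control. The lowest control time point of each thus exceeded its highest Apc-min time point. The same held for Cyp3a13, with control means from 154 TPM (28 h) to 255 TPM (44 h) and Apc-min means from 10.2 TPM (28 h) to 13.8 TPM (24 h). Of the Cyp2c genes, Cyp2c55 had control means from 143 TPM (38 h) to 205 TPM (34 h), Cyp2c65 from 41.8 TPM (38 h) to 60.5 TPM (32 h) and Cyp2c68 from 24.9 TPM (26 h) to 34.9 TPM (32 h). Among the genes high in Apc-min, Cyp2f2 had Apc-min means from 14.1 TPM at 28 h, where the doubted library takes part, to 131 TPM at 44 h, and Cyp1b1 from 8.81 TPM (32 h) to 23.3 TPM (38 h). Only 1 library was present at 28 h and 44 h in control and at 24 h and 32 h in Apc-min organoids. Time points with 1 library follow that library's set, so the steps between neighbouring Apc-min means include the difference between sets.

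Markers of other cell types moved with the same groups. All 12 enterocyte markers fell in both Apc comparisons (median -6.35 and -6.41 log2), against 31% and 38.1% of all genes. Their summed level ran at 6925 to 10300.2 TPM in control and 6642 to 9590 TPM in Bmal1-null libraries. It ran at 73.9 to 1001 TPM in Apc-min libraries and 64.3 to 560 TPM where both lesions were present. Sis and Lct were under 0.1 TPM on average in both Apc-min genotypes. The epithelial markers summed to 11380 to 15694 TPM in control and 9438 to 14047 TPM in Apc-min libraries, and the 3 goblet markers to 4642 to 6910 and 53.7 to 292 TPM. In the Bmal1 comparison with wild-type Apc, 1 of the 12 enterocyte markers rose and 1 fell (2.07% and 1.48% of all genes). In that with Apc-min 2 rose and 7 fell (24.2% and 34.8% of all genes). The 5 hepatocyte markers summed to 13.1 to 19.7 TPM in control and 0.33 to 1.22 TPM in Apc-min libraries. Nearly all of the control sum was Ttr (11.9 to 18.5 TPM), which fell in Apc-min (-3.47 ± 0.04 log2), while Alb, Fgb and Serpina1a were under 0.1 TPM on average in control organoids.

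A marker each of the immune and endothelial lists rose in Apc-min against control and fell from there to Apc-min Bmal1-null organoids, as Cyp2f2 and Cyp1b1 did. Lyz2, of 4 immune markers the 1 tested, had medians of 1.40 TPM in control, 1.42 TPM in Bmal1-null and 10.8 TPM in Apc-min libraries, and of 0.185 TPM where both lesions were present. It rose in the first step (2.18 ± 0.16 log2) and fell in the next (-2.95 ± 0.24 log2, and -3.25 ± 0.07 log2 without the doubted pair). The immune markers Cd3e and Ptprc were under 0.1 TPM on average in both Apc-min genotypes. Cdh5, of 3 endothelial markers the 1 tested, was listed at 0 in every Bmal1-null library, and had a median of 2.65 TPM in Apc-min libraries (2.61 ± 0.26 log2 against control). With both lesions its median was 1.37 TPM (-1.27 ± 0.32 log2, and -1.47 ± 0.28 log2 without the doubted pair). The endothelial markers Kdr and Pecam1 were under 0.1 TPM on average in both Apc-min genotypes. The sum over the immune list was 0.96 to 1.97 TPM in control, 0.16 to 18.7 TPM in Apc-min libraries and 0.09 to 8.39 TPM with both lesions. The sum over the endothelial list was 0.13 to 0.54, 1.84 to 19.6 and 0.27 to 18.7 TPM in the same order. The part of cell composition in the P450 values was not tested.

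The genes that serve or regulate P450 enzymes were counted from lists of their own. Por, the common electron donor, fell in Apc-min from a median of 228 to 114 TPM (-1.01 ± 0.10 log2, limma adjusted p = 8.88e-11). It fell in Apc-min Bmal1-null against Bmal1-null by 1.35 and in Apc-min Bmal1-null against Apc-min by 0.49 on the log2 scale. Por also fell, by 0.20, with loss of Bmal1 in wild-type Apc organoids (adjusted p = 0.0472). Among the 7 electron donors tested, 5 fell and 2 rose in Apc-min against control (31% and 50.4% of all genes). Of the 12 genes of heme synthesis and breakdown, 8 rose, none fell and 4 did not pass in that comparison, in which 50.4% of all genes rose. In Apc-min Bmal1-null against Bmal1-null organoids 8 rose and 2 fell (45.6% and 38.1% of all genes).

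Of the 19 receptors and sensors tested, 14 fell and 2 rose in Apc-min against control (31% and 50.4% of all genes). In Apc-min Bmal1-null against Bmal1-null, 15 fell and 3 rose (38.1% and 45.6% of all genes). Nr1i2, encoding PXR, ran at 39.1 to 52.8 TPM in control and 44.3 to 57.7 TPM in Bmal1-null libraries and did not pass between them (0.04 ± 0.03 log2). It ran at 0.02 to 0.71 TPM in Apc-min libraries and 0.3 to 2.26 TPM in those also lacking Bmal1, a rise of 0.96 ± 0.09 log2 between these (limma, adjusted p = 1.44e-10). Ahr rose in Apc-min by 1.97 ± 0.13 log2, from a median of 4.7 to 18.96 TPM, and fell from Apc-min to Apc-min Bmal1-null by 0.96 on the log2 scale (adjusted p = 3.65e-06). In the Bmal1 comparison with wild-type Apc, 1 of the 19 rose (Nr1h3) and none fell, against 2.07% and 1.48% of all genes. In that with Apc-min 8 rose and 6 fell, against 24.2% and 34.8% of all genes, and with the doubted pair left out 8 rose and 9 fell, against 26.2% and 38.5%. Among the factors of the TTATGTAA site, the PAR bZIP activators Dbp and Tef did not pass with loss of Bmal1 in wild-type Apc organoids, and Nfil3, a repressor at the same site, rose by 0.39 ± 0.04 log2 (adjusted p = 2.86e-08).

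A 24 h rhythm, fitted as a cosine and a sine over the 12 time points, was called for few P450 genes. In control organoids no P450 gene passed (0.108% of all genes). An unadjusted p under 0.05 (limma) was reached by 6 of the 34 and by 11.7% of all genes. In Bmal1-null organoids none passed either (0% of all genes; unadjusted, 4 of the 34 and 7.54% of all genes). In Apc-min 2 passed, against 11.3% of all genes, and in Apc-min Bmal1-null 1 passed, against 2.57%. The samples cover 1 cycle, so a rhythm and a drift over time cannot be told apart.

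Cyp4f17 and Cyp39a1 were the calls in Apc-min. Cyp4f17 had an estimated peak at 40.1 h and a 1.71-fold swing from trough to peak (limma, adjusted p = 0.0324). Cyp39a1 had a peak at 40.7 h and a 1.5-fold swing (adjusted p = 0.0378), with time-point means from 4.96 TPM at 24 h (1 library) to 9.11 TPM at 44 h over the time points other than 28 h. At 28 h its mean was 4.66 TPM, which includes the doubted library at 3.59 TPM. Without the doubted library neither passed and no other P450 gene did (3.16% of all genes; unadjusted, 7 of the 34 and 24.3% of all genes).

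Cyp2d26 was the call in Apc-min Bmal1-null. Its time-point means were 1.02 TPM at 24 h and 4.0 TPM at 46 h (1 library). The lowest was 0.76 TPM at 28 h, which includes the doubted library at 0.46 TPM. The fit with all libraries had an estimated peak at 41.1 h and a 2.15-fold swing (limma, adjusted p = 0.0076). Without the doubted library 7 P450 genes passed, against 12.2% of all genes: Cyp2s1, Cyp27a1, Cyp2d26, Cyp39a1, Cyp2d10, Cyp2b10 and Cyp2d9. Cyp2s1 then had a 4.44-fold swing (adjusted p = 0.00149) and Cyp27a1 a 1.59-fold swing (adjusted p = 0.00233). With a linear time term added, no P450 gene passed in any genotype with Apc-min.

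Rhythms were also compared between genotypes. No P450 gene differed in rhythm between Bmal1-null and control organoids (0.0289% of all genes; unadjusted, 1 of the 34 and 2.11% of all genes, limma) or between Apc-min Bmal1-null and Apc-min organoids (0% of all genes; unadjusted, 6 of the 34 and 7.1% of all genes, and 1 and 2.61% without the doubted pair).

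**Figure D5:**
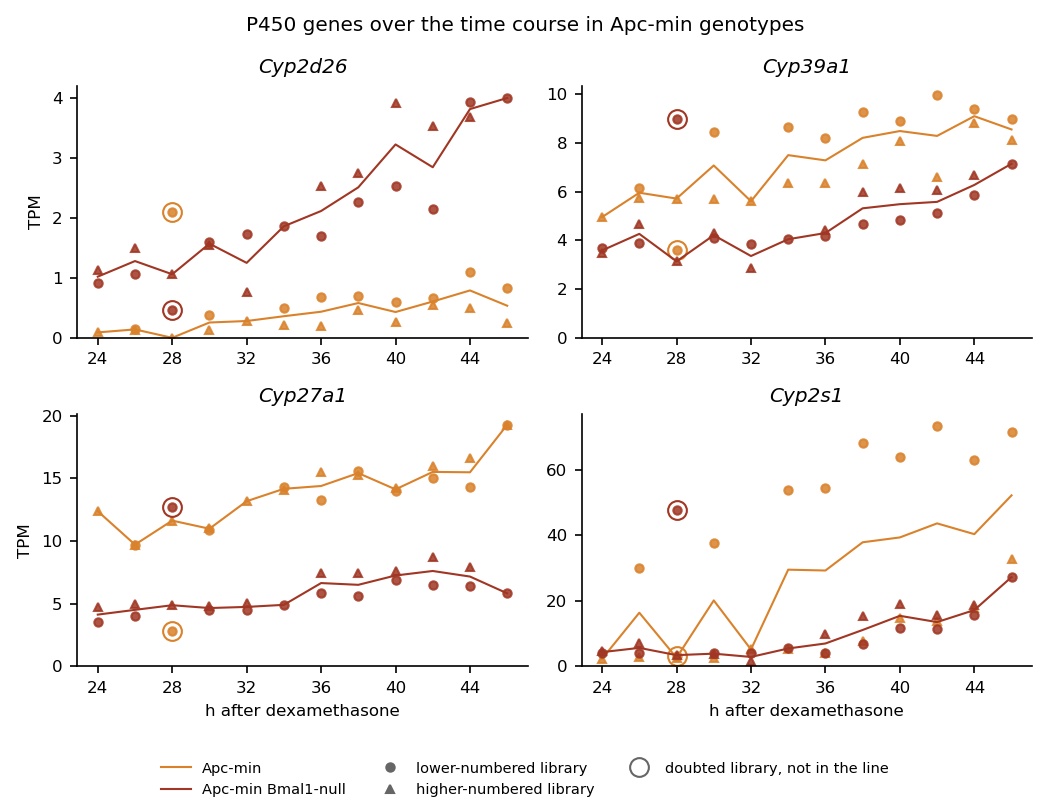
Cyp2d26, Cyp39a1, Cyp27a1 and Cyp2s1 in the Apc-min genotypes, in TPM against hours after dexamethasone. Points are libraries, and lines join time-point means without the doubted pair, which is circled at 28 h. The Apc-min Bmal1-null means of Cyp2d26 go from 1.02 TPM at 24 h to 4.0 TPM at 46 h (1 library).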

How the data were processed

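Gene expression was measured by single-end RNA-seq (101-base reads, directional library kit) in 88 organoid libraries. The submitters' processing notes name STAR 2.5, RSEM 1.3.0 and GRCm38. The authors deposited 1 table of TPM values per genotype, which summed to 999999 to 1000001 per library and were used for every result. The authors also deposited filtered tables of quantile-normalized signal, normalized within a genotype and used here only as an alternative for rhythms. Mapping tables, per the file headers, gave the count of uniquely mapped reads and the percent of reads unmapped as too short. TPM values keep no depth, so no count test was run.

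The 13846 genes whose mean reached 1 TPM in some genotype were tested with limma 3.58.1 (R 4.3.3, empirical Bayes with a trend) on log2(TPM + 1), with the time point as a factor. The pseudocount understates changes of low genes. Rhythm was an F test of a 24 h cosine and sine. Benjamini-Hochberg adjustment ran over all genes and calls were made at 0.05. The fits were tested on simulated data. Genes given in full were those called with a log2 difference of 1 or more (at most 8 per comparison) or called rhythmic. Cyp27a1 and Cyp2s1, and the smaller differences named, were chosen after their values were seen. The members and lists were chosen with earlier results of these data known. Gene positions come from GENCODE M21. The alternatives were another pseudocount, other filters, scalings and variance models, library sets, added time terms and leaving out libraries.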

Additional observations from a re-analysis of the deposited data

Results flagged for a closer look

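In 8 P450 genes the difference made by loss of Bmal1 itself differed between the 2 Apc backgrounds by 1 log2 unit or more. This held at an adjusted p under 0.05 (limma), both with all libraries and without the doubted pair. The values are the difference in Apc-min organoids minus that in wild-type Apc organoids, on the log2(TPM + 1) scale, from the interaction term of limma with Benjamini-Hochberg adjustment over all genes. They were negative for Cyp2f2 (-3.90, adjusted p = 2.13e-10), Cyp2w1 (-1.61, adjusted p = 1.25e-05), Cyp2d10 (-1.33, adjusted p = 2.84e-11), Cyp3a11 (-1.21, adjusted p = 1.14e-23) and Cyp1b1 (-1.07, adjusted p = 5.66e-06). They were positive for Cyp2d34 (1.82, adjusted p = 2.62e-13), Cyp2c65 (1.82, adjusted p = 1.81e-15) and Cyp4b1 (1.60, adjusted p = 7.46e-20). Without the doubted pair they were -4.40, -1.85, -1.49, -1.21, -1.22, 2.02, 1.98 and 1.71 in the same order. Cyp1b1 and Cyp2f2 were near 0 TPM in the wild-type Apc background and Cyp3a11 in the Apc-min background, so in each of these the term rests on 1 background.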

How the results depend on the processing

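Apart from leaving out single libraries, 368 values were recomputed under an alternative: 330 kept their direction and side of the threshold or stayed within 1.5 times, 23 no longer passed, 15 counts moved further and 0 reversed. With library set means as units (2 against 2, doubted pair included), the 6 calls of Bmal1-null against control and the 22 of Apc-min Bmal1-null against Apc-min both became 0. Rhythm calls were the least stable. With the library set as a term they were 1 in control and 13 in Apc-min. Shares of all genes were computed only for the fits as reported and those without the doubted libraries. Whether the counts under the other alternatives moved with those of all genes was therefore not tested. In Apc-min the 2 calls became 0 with no filter on low values, median-of-ratios scaling, a linear time term, time point as a factor, the authors' quantile-normalized table, or without the doubted library. In Apc-min Bmal1-null the 1 call became 2 with median-of-ratios scaling, 3 in the quantile-normalized table, 0 with a linear term or time as a factor, and 7 without the doubted library. The cause of these shifts was not tested. Leaving out 1 library at a time gave 6 to 8 and 22 to 23 calls in the Bmal1 comparisons, 32 and 33 to 34 in the Apc comparisons, and 0 rhythm calls in control and Bmal1-null. It gave 0 to 8 rhythm calls in Apc-min (8 without library 13, 1 without library 5 or 25, and 0 without any 1 of libraries 8, 9, 12, 16, 20, 29, 33, 37 and 41) and 1 to 7 in Apc-min Bmal1-null (7 without library 10, 2 without library 19). No paired analysis was possible because the labels do not tie the library numbers of different genotypes to a shared animal, line or day. Read depth behind single TPM values cannot be recovered, so values under 1 TPM carry no interval.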
